A study of Rattus norvegicus with 44 samples.

Results

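Glucose uptake and glycolysis genes that are known targets of the hypoxia-inducible factor (HIF), 10 in all, were followed through 9 metal exposures of a rat liver tumor cell line. The genes are Slc2a1, Hk2, Pfkfb3, Aldoa, Tpi1, Pgk1, Eno1, Ldha, Pdk1 and Slc16a3. They were found as the probe sets (groups of probes for 1 transcript) that the array annotation pairs with exactly 1 of these symbols, which gave 15 of the 31042 probe sets that are not array controls. Slc2a1, Hk2, Aldoa, Tpi1, Eno1, Ldha and Slc16a3 had 1 probe set each, Pdk1 had 2, and Pfkfb3 and Pgk1 had 3 each. The probe set with the highest mean over all arrays stands for its gene unless another is named.

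Glycolysis turns glucose into pyruvate and yields ATP without oxygen. When oxygen is short, HIF raises the transcription of glucose carriers, of most glycolytic enzymes and of genes that keep pyruvate out of the mitochondria, so that more of it is reduced to lactate. The HIF alpha subunits are marked for breakdown by prolyl hydroxylases that need iron and oxygen, and HIF binds short DNA motifs with the core ACGTG or GCGTG. Hepatocytes can also run the pathway backwards and release glucose.

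H4-II-E-C3 cells, a line from a rat hepatoma, were exposed for 24 h to nickel chloride at 40, 140 or 400 µM, sodium dichromate at 0.275, 1 or 10 µM, or cadmium chloride at 0.2, 0.55 or 1.2 µM. Each exposure had 4 biological replicates, and each replicate had 2 unexposed control arrays, Control 1 and Control 2, that all 3 metals share. There were 44 arrays, 36 exposed and 8 control. The labels do not say that the 2 control arrays of a replicate came from separate cultures, so they were averaged within it. Values are on the log2 scale of the deposited table. The hepatocyte product Alb was at 13.82 to 14.71 over the 44 arrays and Ttr at 8.73 to 12.49, while Apoa1 was low at 4.35 to 7.18. The 9 markers of fibroblasts, endothelium and leukocytes ranged from 3.99 to 6.04.

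The conditions of the arrays could not be taken from the labels as they stand. The sample titles were listed in series order, the 4 titles that mark a repeated array were moved to the end, and the titles were given to the data columns in that order. Means of the conditions over 992 probe sets then met the condition averages supplied with the study to a median of 2.95e-06 and at most 7.5e-06 (log2). Under the labels, the same gap had a median of 0.164 and reached 4.32. These averages come from the same arrays, so they check the order and are no independent evidence on any gene. In that order 26 of the 36 exposed arrays had, as their closest array from another replicate, an array of the same condition, against 8 of 36 under the labels. The order moves 22 of the 44 arrays to another condition, none of them a nickel, chromium or control array of replicates 1 and 2. Values below follow this order, and values as labelled or from replicates 1 and 2 alone are named as such.

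The 4 repeated arrays are nickel 140 µM, nickel 400 µM and chromium 0.275 µM of replicate 4, and cadmium 0.55 µM of replicate 2. Their gap between the 3′ and 5′ control probe sets for Gapdh, a measure of RNA quality, was 0.15 to 0.33 (log2), against 0.27 to 0.71 on the other 40 arrays. Control 2 of replicate 4 was the highest of the 8 control arrays for Slc2a1, Aldoa, Tpi1, Pgk1, Eno1, Ldha, Pdk1 and Slc16a3. Where leaving out a replicate or the repeated arrays changed a call, that value stands beside it.

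Upstream DNA is shown for 4 genes that nickel raised at 400 µM, those of glucose entry (Slc2a1), the push on glycolysis (Pfkfb3) and the fate of pyruvate (Ldha, Pdk1). The sequences are the 250 bases before the annotated start in RefSeq (build GRCr8), 5′ to 3′ along the gene, with each match to ACGTG or GCGTG on either strand in capitals.
Slc2a1 (chr5:138002272-138002521, plus strand): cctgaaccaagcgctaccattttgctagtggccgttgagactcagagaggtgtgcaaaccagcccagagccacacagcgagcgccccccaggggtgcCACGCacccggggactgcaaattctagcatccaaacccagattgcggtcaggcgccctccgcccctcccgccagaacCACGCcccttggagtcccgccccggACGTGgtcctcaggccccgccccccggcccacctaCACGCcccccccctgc
Pfkfb3 (chr17:71944683-71944932, plus strand): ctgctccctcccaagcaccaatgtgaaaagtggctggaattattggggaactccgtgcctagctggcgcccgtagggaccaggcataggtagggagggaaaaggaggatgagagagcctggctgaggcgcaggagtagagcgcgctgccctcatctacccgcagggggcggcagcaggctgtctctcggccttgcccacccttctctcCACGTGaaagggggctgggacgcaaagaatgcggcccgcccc
Ldha (chr1:106507842-106508091, plus strand): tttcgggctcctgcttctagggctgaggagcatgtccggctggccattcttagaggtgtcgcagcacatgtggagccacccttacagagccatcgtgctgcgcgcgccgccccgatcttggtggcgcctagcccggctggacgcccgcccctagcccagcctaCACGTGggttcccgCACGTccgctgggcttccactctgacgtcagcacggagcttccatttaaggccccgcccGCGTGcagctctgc
Pdk1 (chr3:77113264-77113513, plus strand): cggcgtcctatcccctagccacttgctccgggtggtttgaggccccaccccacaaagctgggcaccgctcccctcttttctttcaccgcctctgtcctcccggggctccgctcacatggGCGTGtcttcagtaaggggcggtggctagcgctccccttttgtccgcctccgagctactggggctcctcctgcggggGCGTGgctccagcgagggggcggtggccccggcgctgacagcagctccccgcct
In Ldha and Pfkfb3 a run of CACGTG holds ACGTG on both strands, so that these matches overlap. Promoters were matched for 9 of the 10 genes, with 12 start sites in all, since Aldoa had 3 and Eno1 had 2. Slc2a1, Pfkfb3, Aldoa, Eno1, Ldha and Pdk1, 6 of the 9, held a match in at least 1 window (Aldoa in 1 of its 3), and Hk2, Tpi1 and Slc16a3 held none in these windows. By window, 7 of the 12 (58.33%) held a match. Of all 33469 promoters of the same length, 36.7% held at least 1 match (16.57% for ACGTG and 25.89% for GCGTG). A match is a run of letters and was not tested as a binding site.

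Nickel raised most of these genes, from glucose entry to the fate of pyruvate. A change was called at an adjusted p of at most 0.05 (limma, Benjamini-Hochberg over all 31042 probe sets). At 400 µM, 8 of the 10 genes were higher and 0 were lower, where 12.6% of all probe sets were higher and 9.28% lower. At 140 µM, 7 of the 10 were higher and 0 lower, where 0.925% of all probe sets were higher. At 40 µM limma called 0 of the 10 genes and 0.0% of all probe sets. There 1116 of the 31042 probe sets had an unadjusted limma p under 0.05, below the share of 0.05 that no effect would give. The median log2 change of the 10 genes was -0.03 at 40 µM, 0.71 at 140 µM and 0.96 at 400 µM, while the median over all probe sets at 400 µM was -0.02. The genes were chosen with earlier results of these data known, and the study had reported Slc2a1, Pgk1, Ldha and Pdk1 as raised by nickel. The counts and shares are therefore a description and no test of the set.

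From replicates 1 and 2 alone, 6 genes were called at 140 µM, where 0.28% of all probe sets were higher, and 8 at 400 µM, where 12.5% were. With the labels as given none of the 10 genes was called in any exposure, and of all probe sets only 1 was, at 0.55 µM cadmium, although the log2 changes of the same 8 genes at 400 µM ran between 0.36 and 1.11 (limma, lowest adjusted p of 0.38).

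**Figure D1:**
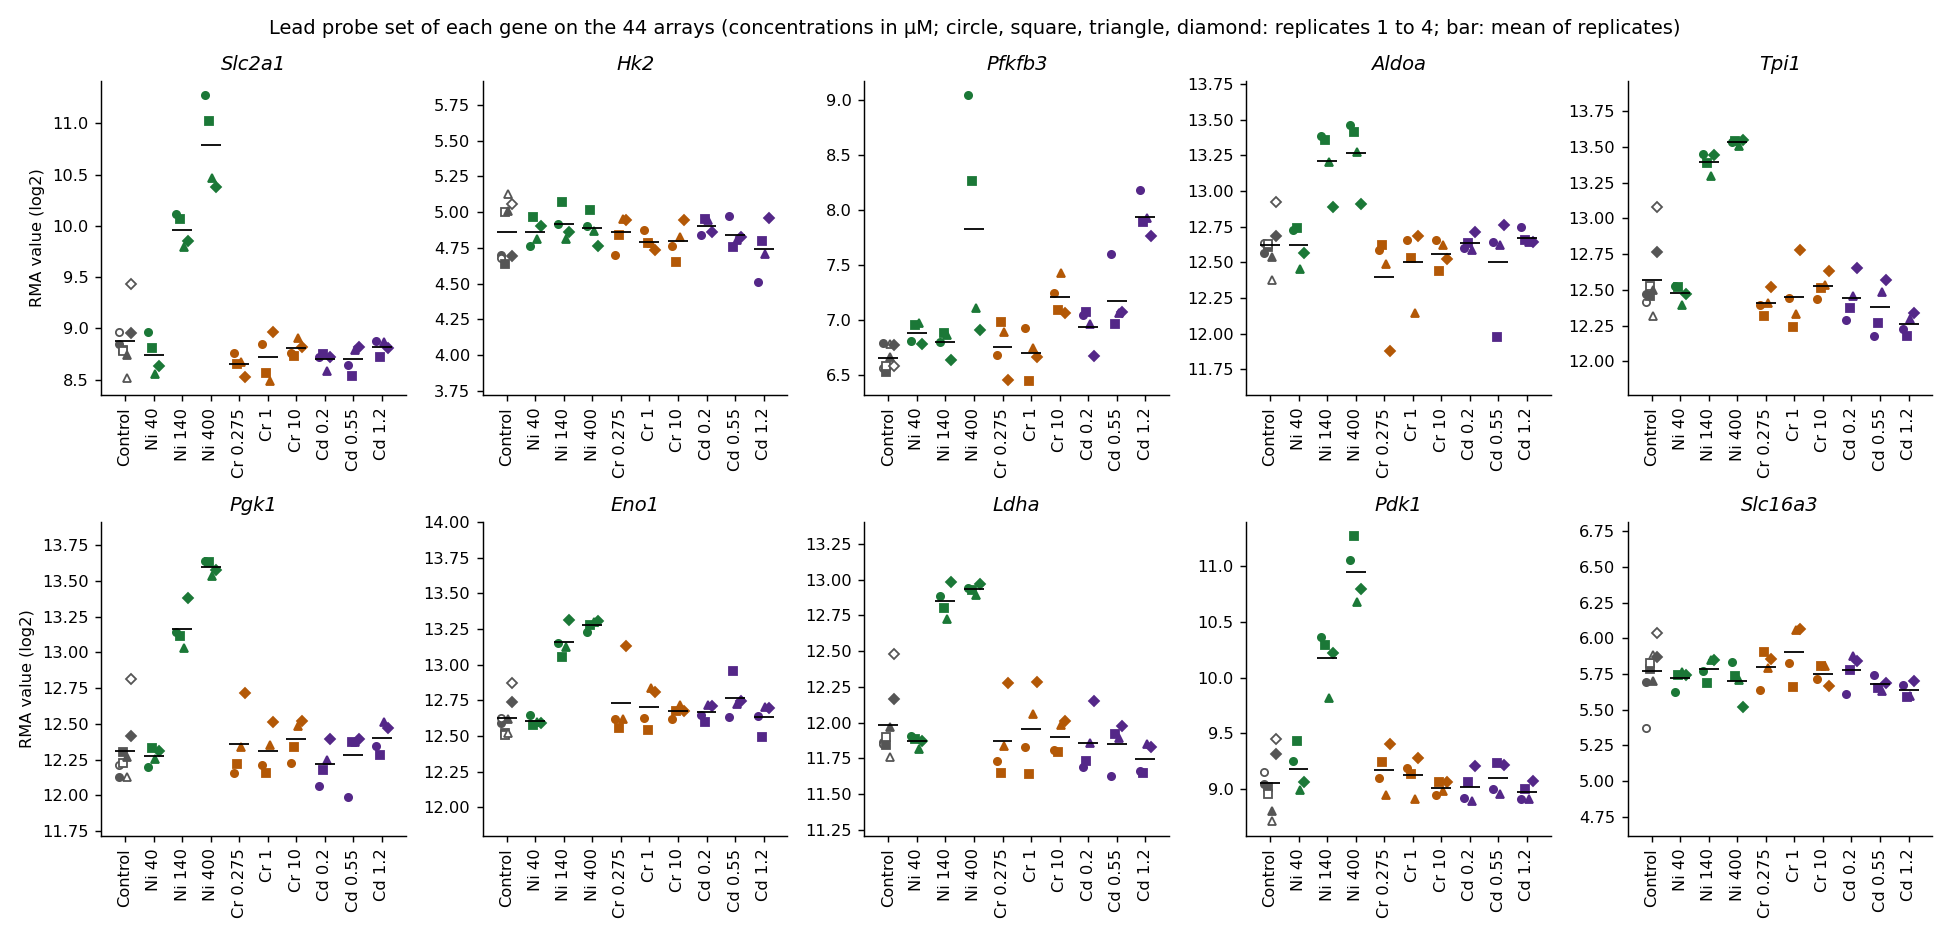
RMA values (log2) of the lead probe set of each of the 10 genes on all 44 arrays, by condition. At 140 and 400 µM nickel, Slc2a1, Tpi1, Pgk1, Eno1, Ldha and Pdk1 sit above every control array, while the nickel arrays of Hk2 and Slc16a3 at these concentrations lie within the range of the controls.

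Slc2a1 encodes GLUT1, the glucose carrier that most cells use for basal uptake. It reached 11.27, 11.02, 10.46 and 10.38 in replicates 1 to 4 at 400 µM nickel, against 8.52, 8.82 and 9.43 as the lowest, median and highest of the 8 control arrays. At 140 µM it was 10.11, 10.06, 9.79 and 9.85, so that both concentrations lay wholly above the controls. The log2 change was 1.91 ± 0.13 (SE, n = 4; 3.75-fold; adjusted p = 1.5e-07) at 400 µM and 1.08 ± 0.13 (adjusted p = 0.00058) at 140 µM. At 40 µM the arrays held 8.55 to 8.96, within the control range. Against the controls of its own replicate, the change at 400 µM was smallest in replicate 4, at 1.19, and largest in replicate 1, at 2.37.

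Slc2a2, which encodes the high-capacity glucose carrier GLUT2 of hepatocytes, moved in the opposite direction. It fell at 400 µM nickel, with a log2 change of -1.94 ± 0.11 (adjusted p = 2.5e-08), and at 10 µM chromium, with -2.19 ± 0.12 (adjusted p = 1.1e-08). At 1.2 µM cadmium it rose by 1.32 ± 0.14 (adjusted p = 9.4e-06). Slc2a1 was not called in either of these other metals, with log2 changes of -0.07 (adjusted p = 0.73) and -0.06 (adjusted p = 0.69).

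Hk2, a hexokinase that traps glucose in the cell, stayed at 4.51 to 5.13 over all 44 arrays. Its log2 change at 400 µM nickel was 0.02 with a 95% interval of -0.15 to 0.20. Whether this probe set was above background was not tested.

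Pfkfb3 makes the allosteric activator of phosphofructokinase and so pushes flux through glycolysis. At 400 µM nickel it was 9.05, 8.26, 7.11 and 6.91, against 6.53, 6.62 and 6.79 in the controls. All 4 arrays lay above the controls, but replicates 1 and 2 stood well above replicates 3 and 4. The log2 change was 1.17 ± 0.28 (2.26-fold; adjusted p = 0.0064). Without replicate 2 it was 1.00 and missed the threshold (adjusted p = 0.091), and without replicate 1 it was 0.77 (adjusted p = 0.025). Replicates 1 and 2 alone, where labels and order give the same conditions, gave 2.04 ± 0.20 (adjusted p = 0.00028). At 140 µM the values of 6.64 to 6.88 overlapped the controls, with a log2 change of 0.14 (adjusted p = 0.89).

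Aldoa, an aldolase, splits fructose bisphosphate into trioses. It held 13.46, 13.42, 13.28 and 12.91 at 400 µM nickel and 13.39, 13.36, 13.21 and 12.89 at 140 µM, against 12.38, 12.62 and 12.92 in the controls. Replicate 4, a repeated array at both concentrations, overlapped the controls, and the other 3 replicates did not. The log2 change was 0.64 ± 0.11 (adjusted p = 0.00049) at 400 µM and 0.59 ± 0.11 (adjusted p = 0.013) at 140 µM. The call at 140 µM was lost without replicate 1, 2 or 3 (adjusted p of 0.12, 0.16 and 0.15). Without the 4 repeated arrays the changes were 0.79 ± 0.08 at 400 µM and 0.72 ± 0.08 at 140 µM, both called. On each of the repeated arrays Aldoa was below all other arrays of its condition. Against their mean it stood at -0.48 in nickel 400 µM and -0.43 in nickel 140 µM (log2). In chromium 0.275 µM it stood at -0.69 and in cadmium 0.55 µM at -0.70. The cause was not tested.

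Tpi1, which interconverts the trioses, was 13.54, 13.54, 13.51 and 13.55 at 400 µM nickel, against 12.32, 12.48 and 13.08 in the controls. The nickel arrays lay close together and above every control. The log2 change was 0.97 ± 0.08 (1.96-fold; adjusted p = 1.6e-06) at 400 µM and 0.83 ± 0.08 (adjusted p = 0.00011) at 140 µM.

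Pgk1 catalyzes the first ATP-yielding step of the pathway. It was 13.64, 13.63, 13.53 and 13.58 at 400 µM nickel and 13.14, 13.12, 13.03 and 13.38 at 140 µM, against 12.13, 12.25 and 12.82 in the controls. Both nickel groups were clear of the controls. Its log2 change was 1.29 ± 0.08 (2.44-fold; adjusted p = 5.3e-08) at 400 µM and 0.86 ± 0.08 (adjusted p = 5.3e-05) at 140 µM.

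Eno1, an enolase, makes phosphoenolpyruvate. Its arrays held 13.23, 13.28, 13.30 and 13.31 at 400 µM nickel, against 12.51, 12.61 and 12.87 in the controls, again with no overlap. Its log2 change at 400 µM was 0.65 ± 0.07 (1.57-fold; adjusted p = 6.9e-06), and it was 0.54 ± 0.07 (adjusted p = 0.00058) at 140 µM.

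Ldha encodes the lactate dehydrogenase subunit that favors the reduction of pyruvate to lactate. It was 12.94, 12.93, 12.89 and 12.97 at 400 µM nickel and 12.89, 12.80, 12.72 and 12.99 at 140 µM, against 11.76, 11.88 and 12.48 in the controls. The nickel arrays of both concentrations lay above every control. The log2 change was 0.95 ± 0.08 at 400 µM (1.94-fold, adjusted p = 1.3e-06) and 0.87 ± 0.08 at 140 µM (adjusted p = 5.2e-05). The study also measured Ldha by quantitative PCR on the same RNA. It reports that Ldha missed its fold criterion at 400 µM nickel and met it at 140 µM. The PCR values were taken relative to beta actin and Gapdh. On the arrays the Gapdh M set, an array control probe set, averaged 13.58 in the controls. It averaged 13.89 at 140 µM nickel and 14.07 at 400 µM. The part of Gapdh in the PCR result was not tested.

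Pdk1 phosphorylates and shuts pyruvate dehydrogenase, the entry of pyruvate into mitochondrial oxidation. It was 11.06, 11.27, 10.68 and 10.79 at 400 µM nickel and 10.37, 10.29, 9.82 and 10.23 at 140 µM, against 8.71, 9.03 and 9.45 in the controls. No array at these concentrations overlapped the controls. Pdk1 and Slc2a1 had the largest changes of the 10 genes, Pdk1 with 1.89 ± 0.11 (3.72-fold; adjusted p = 2.1e-08) at 400 µM and 1.12 ± 0.11 (adjusted p = 5.5e-05) at 140 µM.

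Slc16a3, the carrier MCT4 that exports lactate, was not called where Ldha was. It was 5.83, 5.74, 5.71 and 5.52 at 400 µM nickel, against 5.37, 5.81 and 6.04 in the controls, and the groups overlapped. Its log2 change was -0.07 with a 95% interval of -0.26 to 0.12. As for Hk2, detection above background was not tested.

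**Figure D2:**
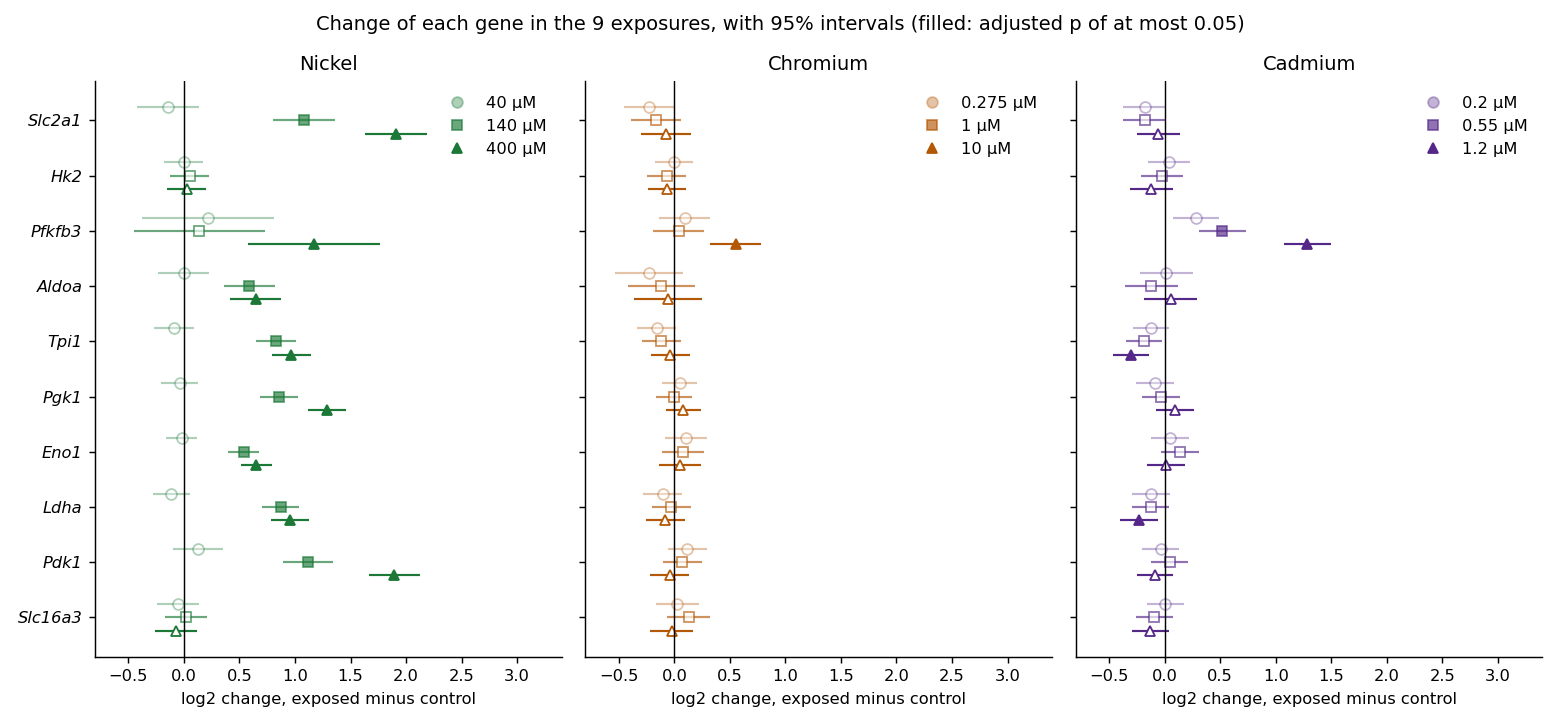
Log2 change of each gene against the controls, with 95% intervals, at the 3 concentrations of nickel, chromium and cadmium; filled symbols passed an adjusted p of at most 0.05. In nickel 7 genes passed at 140 µM and 8 at 400 µM, and Pfkfb3 passed at the high concentration of all 3 metals.

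The genes differed in how they moved between nickel concentrations. From 40 to 140 µM, 7 of the 10 rose, where 0.712% of all probe sets did, with log2 differences between 0.56 for Eno1 and 1.22 for Slc2a1. From 140 to 400 µM, 4 of the 10 rose, where 5.75% of all probe sets did. Slc2a1 rose further by 0.83 ± 0.13 (adjusted p = 0.0018), Pdk1 by 0.78 ± 0.11 (adjusted p = 0.0008) and Pgk1 by 0.43 ± 0.08 (adjusted p = 0.0044). Pfkfb3 rose in this step alone, by 1.03 ± 0.28 (adjusted p = 0.028).

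The other genes that had risen by 140 µM did not pass for the second step. Ldha differed by 0.08 (95% interval -0.09 to 0.25), Aldoa by 0.05 (-0.17 to 0.28), Eno1 by 0.12 (-0.03 to 0.26) and Tpi1 by 0.14 (-0.04 to 0.32). Both steps share the 140 µM arrays, and the difference between the steps was not tested. Without replicate 2 only Slc2a1 and Pdk1 passed for the second step, with an adjusted p of 0.07 for Pgk1 and 0.2 for Pfkfb3, and Pfkfb3 also missed without replicate 1 (0.63, adjusted p = 0.13). In the first step Aldoa missed without replicate 1, 2 or 3 (adjusted p of 0.081, 0.12 and 0.17).

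**Figure D3:**
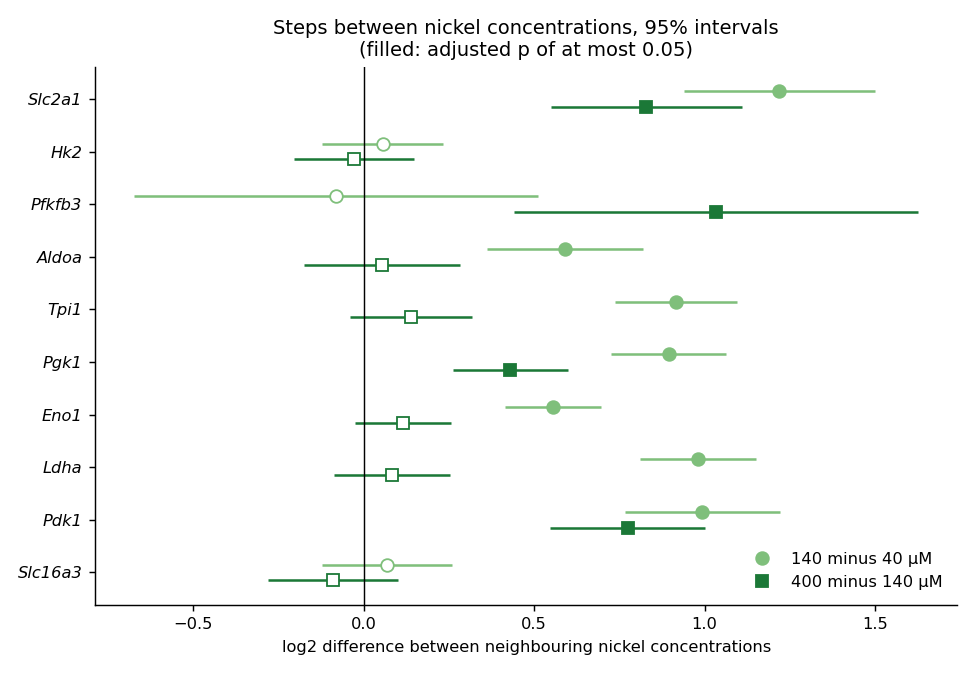
Log2 difference of each gene between neighboring nickel concentrations, 140 minus 40 µM and 400 minus 140 µM, with 95% intervals; filled symbols passed an adjusted p of at most 0.05. Ldha, Tpi1, Aldoa and Eno1 passed for the first step, Slc2a1, Pdk1 and Pgk1 for both, and Pfkfb3 for the second.

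In chromium only Pfkfb3 was called. At 0.275 and 1 µM 0 of the 10 genes were called by limma, where 0.00322% and 0.0226% of all probe sets were called in either direction. At 10 µM, 1 gene was higher and 0 were lower, where 11.9% of all probe sets were higher and 10.0% lower. Pfkfb3 was 7.25, 7.09, 7.43 and 7.07, all above the control range of 6.53 to 6.79. Its log2 change was 0.55 ± 0.11 (1.46-fold; adjusted p = 0.0011). In 1 fit over all metals its adjusted p was 0.061, and with the mean of its 3 probe sets the change was 0.19 (adjusted p = 0.16).

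In cadmium Pfkfb3 was again the gene that rose. At 0.2 µM 0 of the 10 genes were called by limma, where 0.184% of all probe sets were. At 0.55 µM Pfkfb3 was 7.60, 6.96, 7.07 and 7.08, above every control, with a log2 change of 0.52 ± 0.10 (adjusted p = 0.009), and it was the only gene of the 10 called (1 higher, 0 lower), where 3.35% of all probe sets were higher. That call was lost without replicate 1 (0.38, adjusted p = 0.072) and without replicate 3 (0.58, adjusted p = 0.082). At 1.2 µM it was 8.18, 7.90, 7.93 and 7.77, a shift of like size in all replicates, with a log2 change of 1.28 ± 0.10 (2.43-fold; adjusted p = 2.4e-07).

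At 1.2 µM cadmium 1 of the 10 genes was higher and 2 were lower, where 12.7% of all probe sets were higher and 9.31% lower. Tpi1 was 12.22, 12.18, 12.30 and 12.34, against 12.32, 12.48 and 13.08 in the controls, with a log2 change of -0.31 ± 0.08 (adjusted p = 0.0083). Ldha was 11.66, 11.65, 11.85 and 11.83, against 11.76, 11.88 and 12.48, with a log2 change of -0.23 ± 0.08 (adjusted p = 0.046). Both ranges overlapped the controls, and the high Control 2 of replicate 4 enters both means. Without replicate 4 the changes were -0.21 (adjusted p = 0.11) for Tpi1 and -0.15 (adjusted p = 0.29) for Ldha, and Ldha missed the threshold whichever replicate was left out.

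The probe sets of a gene did not always move together. The second probe set of Pdk1 rose like the lead at 400 µM nickel, by 1.57 ± 0.10, but at 1.2 µM cadmium it was 7.53, 7.56, 7.57 and 7.54, against 8.13, 8.34 and 8.66 in the controls, with no overlap. Its log2 change there was -0.81 ± 0.08 (adjusted p = 2e-06), while that of the lead was -0.08 ± 0.08 (adjusted p = 0.46). It was also lower at 0.55 µM cadmium (-0.33 ± 0.08, adjusted p = 0.023) and at 10 µM chromium (-0.26 ± 0.09, adjusted p = 0.035). From replicates 1 and 2 alone these 2 changes were -0.37 and -0.18 and missed the threshold (limma, adjusted p of 0.25 for both). The change at 1.2 µM cadmium was -0.78 there and passed (adjusted p = 0.0078).

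Of the other 2 probe sets of Pfkfb3, 1 changed by 0.93 ± 0.18 at 1.2 µM cadmium (adjusted p = 0.0017) and by 0.73 ± 0.27 at 400 µM nickel (adjusted p = 0.062), and the other stayed at 6.16 to 6.70 on all 44 arrays. All 3 probe sets of Pgk1 rose at 400 µM nickel, the others by 1.53 and 0.80. Which transcripts the probe sets see was not analysed here.

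**Figure D4:**
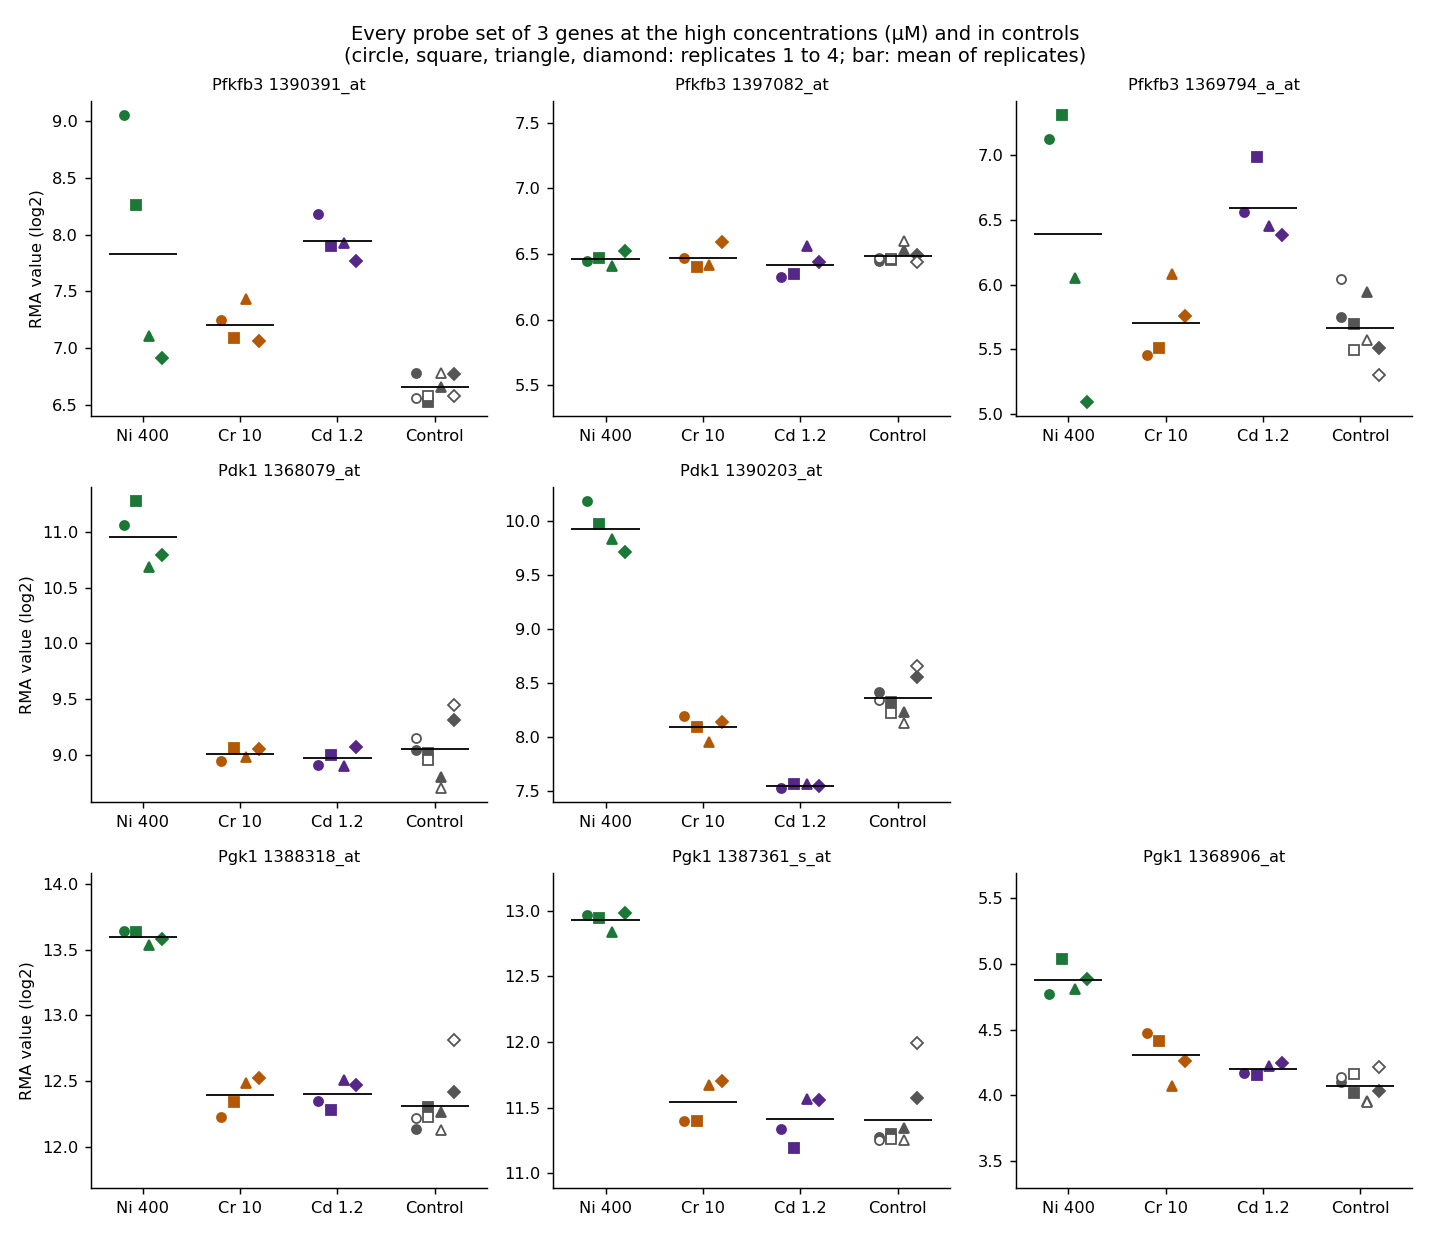
RMA values (log2) of every probe set of Pfkfb3, Pdk1 and Pgk1 at the high concentration of each metal and in the controls, where open symbols are Control 2; each shape is a replicate and bars are means. The second Pdk1 probe set sits at 7.53 to 7.57 at 1.2 µM cadmium, below all controls, and the lead Pfkfb3 probe set spreads from 6.91 to 9.05 at 400 µM nickel.

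The difference between metals was itself tested at the high concentrations, in a fit over all arrays in which the shared controls cancel. Nickel exceeded chromium for 8 of the 10 genes, where 12.5% of all probe sets were higher, and exceeded cadmium for 7, where 11.8% were. Slc2a1 was higher in nickel by 1.98 ± 0.13 than in chromium (adjusted p = 1.8e-14) and by 1.96 ± 0.13 than in cadmium (adjusted p = 2.7e-14). For Pdk1 the differences were 1.94 ± 0.10 and 1.98 ± 0.10, for Pgk1 1.20 ± 0.08 and 1.20 ± 0.08, and for Ldha 1.03 ± 0.09 and 1.19 ± 0.09.

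Pfkfb3 was higher in nickel than in chromium by 0.62 ± 0.21 (adjusted p = 0.028), a call lost without replicate 1 (0.23, adjusted p = 0.45) or 2 (0.44, adjusted p = 0.27). Between nickel and cadmium it differed by -0.11 with a 95% interval of -0.54 to 0.32, but the replicates were split. From replicates 1 and 2 alone nickel was higher by 0.62 (0.18 to 1.05, limma, adjusted p = 0.042). In replicates 3 and 4 nickel was lower, at 7.11 and 6.91 against 7.93 and 7.77 in cadmium. Chromium and cadmium differed for 2 of the 10 genes, where 25.2% of all probe sets differed in either direction. Chromium minus cadmium was -0.73 ± 0.21 for Pfkfb3 (adjusted p = 0.0093) and 0.27 ± 0.08 for Tpi1 (adjusted p = 0.011), and neither passed without replicate 2 (-0.71, adjusted p = 0.052, and 0.25, adjusted p = 0.08). The concentrations were chosen by the study from cell viability, at the same levels of cell death for each metal, and differ in molar terms. The lowest had no observed cell death, and the high concentrations compared here were set at the greatest level of cell death chosen.

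Other genes of glycolysis also changed at 400 µM nickel. Of 12 further enzymes measured, 6 were higher and 2 lower, with a median log2 change of 0.42, where 12.6% of all probe sets were higher and 9.28% lower. In the same list 3 were higher and 3 lower at 10 µM chromium, against 11.9% and 10.0% of all probe sets. Cadmium at 1.2 µM gave 3 higher and 2 lower, against 12.7% and 9.31% in the same order. In nickel, Pfkl, the liver phosphofructokinase, rose by 0.82 ± 0.21, Eno2, another enolase, by 0.80 ± 0.12, Gpi, which follows hexokinase, by 0.77 ± 0.09 and Hk1, the widely expressed hexokinase, by 0.69 ± 0.10. The 2 that fell, named after their values were seen, were Pklr, the liver pyruvate kinase (-0.58 ± 0.11), and Pfkp, a phosphofructokinase (-0.41 ± 0.08). Of the 3 other genes of the Pfkfb family, 0 rose and Pfkfb1 fell (-0.30 ± 0.08, adjusted p = 0.016).

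The genes of glucose production did not follow glycolysis. Of 6 gluconeogenesis genes, 0 were higher and 4 lower at 400 µM nickel, where 12.6% of all probe sets were higher and 9.28% lower. The 4 were Fbp1 (-1.22 ± 0.25), Pck2 (-0.74 ± 0.10), Pck1, the cytosolic gatekeeper of the pathway (-0.48 ± 0.09), and Slc37a4 (-0.31 ± 0.10). At 10 µM chromium 3 of the 6 genes were lower, where 10.0% of all probe sets were. At 1.2 µM cadmium 2 of the 6 were lower, where 9.31% of all probe sets were. Of 9 other transport genes, Bsg, the chaperone of lactate carriers, rose by 0.51 ± 0.08 in nickel, and Slc16a7, a monocarboxylate carrier, fell with Slc2a2 (-0.65 ± 0.21).

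Among 9 genes of the pyruvate dehydrogenase complex and its regulators, 2 were higher and 3 lower at 400 µM nickel. Of all probe sets, 12.6% were higher and 9.28% lower in that exposure. The phosphatases that reopen the complex split, with Pdp1 at 0.42 ± 0.13 and Pdp2 at -0.61 ± 0.16, while the kinase Pdk2 was at -0.53 ± 0.12 and the subunit Pdha1 at -0.38 ± 0.08. Of 7 pentose phosphate genes, H6pd rose by 0.69 ± 0.08 and Rpia fell (-0.31 ± 0.07).

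In the HIF pathway 3 of 7 genes were higher and 2 lower at 400 µM nickel. Of all probe sets, 12.6% were higher and 9.28% lower there. Egln3, a HIF prolyl hydroxylase that is itself a known HIF target, rose by 1.75 ± 0.12 (adjusted p = 1.1e-07) at 400 µM and by 1.07 ± 0.12 (adjusted p = 0.00027) at 140 µM. It was lower at 10 µM chromium (-0.64 ± 0.11) and at 1.2 µM cadmium (-0.36 ± 0.10). In nickel Egln1, another hydroxylase, rose by 1.16 ± 0.16 and Epas1, a HIF alpha subunit, by 0.42 ± 0.09, while the mRNA of Hif1a fell (-0.50 ± 0.06). HIF protein was not measured.

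At 400 µM nickel 3 of 6 hepatocyte markers were lower, where 9.28% of all probe sets were. The 3 were Afp (-1.75 ± 0.31), Ttr (-1.62 ± 0.34) and Serpina1 (-0.99 ± 0.23). Of the 9 markers of other cell types only Kdr passed (-0.24, adjusted p = 0.049). The part of these shifts in the changes of the glycolysis genes was not tested, and in RNA from whole cultures fewer cells of a kind and less RNA per cell cannot be told apart.

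**Figure D5:**
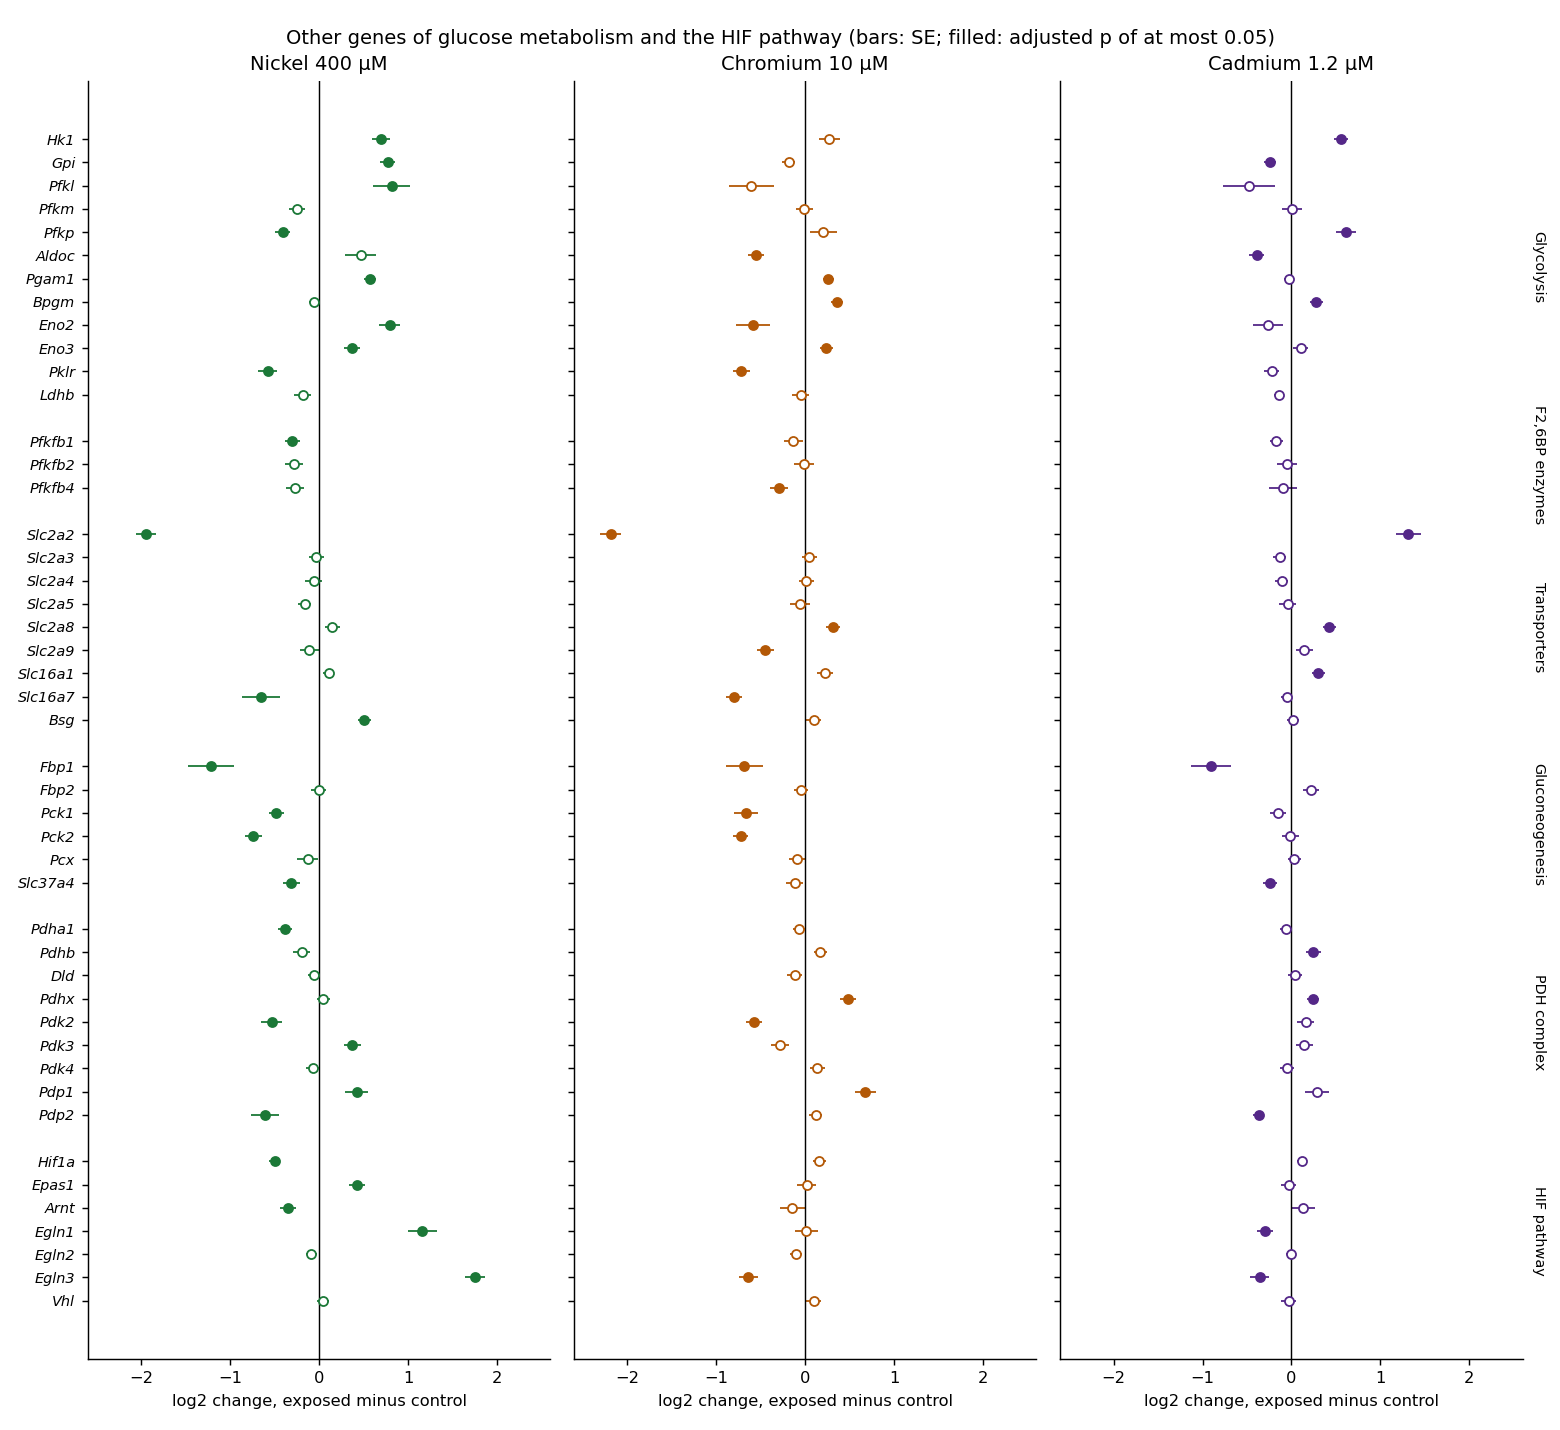
Log2 change of the other measured genes of glucose metabolism and the HIF pathway at the high concentration of each metal; filled symbols passed an adjusted p of at most 0.05. Slc2a2 lies at -1.94 in nickel, -2.19 in chromium and 1.32 in cadmium, and Egln3 at 1.75 in nickel.

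The genes most like the 10 were sought by Pearson correlation with the mean of their lead probe sets over 40 points (controls of a replicate averaged, replicate means removed). They were P4ha1, a subunit of a collagen prolyl hydroxylase (r = 0.97), Pgm1, which links glycogen to glycolysis (0.96), Ndrg2 (0.96), Slc35e1 (0.96), Trip10 (0.96) and Kdm3a, a histone demethylase (0.96). All points share the same arrays and metals, and the correlation is a description. P4ha1 rose by 1.25 at 140 µM and 1.87 at 400 µM nickel, and it was called in no chromium or cadmium exposure. Ndrg2 was lower at 10 µM chromium (-0.27, limma, adjusted p = 0.034) and Kdm3a at 1.2 µM cadmium (-0.32, adjusted p = 0.0069). Among the 10 genes, the correlation with the mean of the other 9 was 0.99 for Slc2a1, 0.97 for Pgk1, 0.96 for Pdk1, 0.93 for Tpi1, 0.93 for Ldha, 0.87 for Eno1 and 0.82 for Aldoa. It was 0.31 for Pfkfb3, 0.25 for Hk2 and -0.01 for Slc16a3.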

How the data were processed

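The study measured RNA of rat hepatoma cells on 44 Affymetrix rat expression arrays. Deposited were log2 values that the authors had obtained with RMA, run in Partek; RMA corrects the background, quantile normalizes all arrays together and summarizes probes. Arrays have no count depth, so the number of replicates limits the precision. A repeated array is, per the study's methods, a new array run on the same RNA. The genes and lists were chosen with earlier results of these data known.

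Each metal was fitted with limma 3.58.1 (R 4.3.3) with terms for condition and replicate, after the 2 controls of a replicate were averaged (9 residual degrees of freedom). Metals were compared in 1 fit over all arrays. The study's methods fit dose and batch, where batch stands for dates of experiment and processing. The sample labels used here give no dates, so the replicate number is not shown to be that batch. P-values were adjusted by Benjamini-Hochberg over 31042 probe sets, with calls at 0.05. A threshold of 0.001 with a 1.8-fold change was an alternative; the study's methods use these values on the concentration term, over probe sets with present calls, while here they were applied to each contrast over all 31042. P-values measure the spread between these replicates. In a simulation of nickel 400 µM on 31042 probe sets, 97% of 2-fold and 100% of 4-fold changes were recovered among 200 changed, with 6 false calls. It drew normal noise for each probe set independently and gave every replicate the same change. Changes below 2-fold, and changes that differ between replicates, were not simulated.

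All 10 genes were named. From each other list up to 4 called genes with the largest change at nickel 400 µM were named, and the 6 most alike genes by correlation. Genes on these lists for which no probe set was used were not analysed here. Array control probe sets stayed out of the fits. Replicate numbers pair the samples: arrays of the same number deviated together (median r 0.38 over 180 pairs of arrays). Of the exposed arrays, 32 of 36 were closest to a control of their own number. Pairs of other numbers had a median r of -0.20 over 540. Deviations were taken from condition means, which by itself pushes the r of other numbers down, so the -0.20 is no separate evidence. Alternatives changed the array order, replicates, controls, block, variance model, centring and choice of probe set. Python 3.11.15, pandas 2.3.3 and numpy 2.4.6 were used for the rest.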

Additional observations from a re-analysis of the deposited data

Results flagged for a closer look

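Of 100 groups of arrays looked at (10 genes by 10 conditions), 5 held an array far from the others by Dixon's test, where chance gives about 1 in 20. Slc2a1 was 8.58 in replicate 3 of cadmium 0.2 µM, against 8.72 to 8.75 in the other replicates. Pgk1 was 11.99 in replicate 1 of cadmium 0.55 µM, against 12.37 to 12.39, and 12.82 in Control 2 of replicate 4, against 12.13 to 12.41 in the other controls. Eno1 was 13.13 in replicate 4 of chromium 0.275 µM, a repeated array, against 12.56 to 12.62. Slc16a3 was 5.63 in replicate 1 of nickel 40 µM, against 5.74 to 5.77.

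Some array control probe sets for glycolytic enzymes, which the fits leave out, stood above every control array in nickel. The Gapdh 5′ set averaged 13.11 at 140 µM and 13.31 at 400 µM, against 12.65 to 12.97 on the controls. The Gapdh M set averaged 13.89 and 14.07, against 13.52 to 13.70. The Gapdh 3′ set averaged 13.77 at 400 µM, against 13.29 to 13.56, and the hexokinase 5′ set 5.00, against 4.44 to 4.84. Others overlapped the controls: the hexokinase 3′ and M sets at 400 µM (lowest arrays 5.48 and 6.13, against controls of up to 5.66 and 6.16), and at 140 µM the Gapdh 3′ set (lowest array 13.45) and all 3 hexokinase sets. These differences were not tested.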

How the results depend on the processing

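Of 266 counts of called genes under 19 alternatives, 233 stayed within 1.5 times and 33 did not. With the labels as given the count was 0.0 in every comparison, and the change of Ldha at cadmium 1.2 µM turned to 0.10. At an adjusted p of at most 0.001 with a 1.8-fold change the counts were 4.0 at nickel 140 µM, 5.0 at nickel 400 µM, 0.0 between these, 0.0 at chromium 10 µM, 0.0 at cadmium 0.55 µM, 1.0 at cadmium 1.2 µM, 5.0 for nickel minus chromium and 0.0 for chromium minus cadmium. Without the replicate block they were 0.0 at cadmium 0.55 µM, 1.0 at cadmium 1.2 µM and 1.0 for chromium minus cadmium, and replicates 1 and 2 alone gave the same 3 counts. In 1 fit over all metals, and with the mean of a gene's probe sets, the count was 0.0 at chromium 10 µM and at cadmium 0.55 µM, and the mean of probe sets added Pdk1 as lower at cadmium 1.2 µM (-0.45, adjusted p = 0.00024). Leaving out each replicate in turn gave 2.0 to 4.0 for nickel 400 minus 140 µM, 0.0 to 1.0 at cadmium 0.55 µM, 1.0 to 2.0 at cadmium 1.2 µM and 0.0 to 2.0 for chromium minus cadmium. The cause of these losses was not tested. In this paragraph the counts stand without the share of all probe sets that passed, and describe only how calls depend on the processing. Without the replicate block Aldoa at nickel 140 µM also missed (0.59, adjusted p = 0.079). Treating the 4 repeated arrays as a block of their own, an alternative chosen after seeing the data, or leaving them out, moved no count by over 1.5 times. Signal over background was not tested.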

Other observations

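The pentose phosphate pathway, which branches from glycolysis and makes NADPH and ribose, is described here for chromium. At 10 µM chromium 5 of 7 measured genes were higher and 2 lower (limma), where 11.9% of all probe sets were higher and 10.0% lower, with Taldo1 at 1.05 and Rpia at 0.40 (log2), against H6pd at -0.38 and Pgls at -0.32. Taldo1 was also higher at 1.2 µM cadmium, at 0.60. These genes were picked after their values were seen.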
